A study of Mus musculus with 4 samples.

Results

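The INK4 and CIP/KIP genes encode the inhibitors of the cyclin-dependent kinases, the enzymes that drive cells from G1 into DNA synthesis. All 7 genes of the mouse, Cdkn2a, Cdkn2b, Cdkn2c and Cdkn2d of the INK4 family and Cdkn1a, Cdkn1b and Cdkn1c of the CIP/KIP family, were taken by their symbols from the 24453 genes counted. Each of the 7 symbols was found in every library. RNA had been sequenced from cells of newborn back skin at postnatal day 0, sorted for surface EpCAM and Sca1 together with a high level of α6-integrin, a gate that enriches for progenitors of the epidermis between the hair follicles. The 2 control libraries carry the genotype label Control, and their alleles are not detailed in the sources used here. The 2 mutant libraries are Ring1a-/- Ring1b-/I53A: both copies of Ring1 (the protein Ring1a) are null, and Rnf2 (the protein Ring1b) has a null allele over the I53A allele, whose product has lost its catalytic activity. The comparison therefore sets the loss of both activities together against control. Neither a promoter driving a deletion nor the number of animals behind a library is given in those sources, so p-values measure only the spread between these libraries.

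INK4 proteins bind Cdk4 and Cdk6 and keep them from pairing with D-type cyclins. CIP/KIP proteins bind cyclin–kinase complexes, above all those of Cdk2. Cdkn2a and Cdkn2b sit side by side in a locus that Polycomb complexes are known to repress. PRC1, to which Ring1a and Ring1b belong, ubiquitinates histone H2A at such targets. Cdkn1c is imprinted and read from the maternal copy, and its protein p57Kip2 accompanies cell cycle exit in many developing tissues.

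In mutant epidermis 2 of the 7 inhibitor genes rose. Cdkn1c, well detected in controls, rose 5.04-fold, and Cdkn2b rose 7.44-fold from a level near the limit of detection. None of the 7 fell: Cdkn2c, Cdkn2d, Cdkn1a and Cdkn1b did not pass the test, and Cdkn2a had 0 counts in all 4 libraries. The 2 calls are out of 6 genes tested by edgeR's quasi-likelihood method at a Benjamini-Hochberg threshold of 0.05 over all tested genes. Of all 14550 tested genes 6.71% were called, 5.68% higher and 1.04% lower. Among genes that passed the low-count filter in the controls, as 5 of the 6 members did, 5.18% were called higher. Of those 5 members Cdkn1c alone was called higher. Cdkn2b passed the filter through the mutant libraries only, and 16.8% of the 774 genes of that kind were called higher. No member was called lower by edgeR or DESeq2, and 1, Cdkn1a, was lower at an unadjusted p under 0.05. The share of all tested genes at that unadjusted level was not counted. Counts at that level, here and for the lists below, therefore have no base to be read against. Groups did not overlap for 4 members, Cdkn2b, Cdkn1c, Cdkn1a and Cdkn1b, as for 47.9% of all tested genes. Of all calls, 84.5% were increases, and a correction for GC content and transcript length made this 73.4%.

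The libraries held 15505018 to 21543385 counts. Ring1 fell to 2.54 and 2.91 CPM (read counts scaled to a common library size) in mutant replicates 1 and 2, from 24.2 and 33.3 CPM in the controls. Rnf2 did not pass the test (log2 fold change 0.18 ± 0.17, adjusted p = 0.681). Epcam, Ly6a (Sca1), Itga6, Krt5 and Krt14, the genes of the sort and of basal keratinocytes, were read in every library. By Xist and the Y-linked gene Ddx3y, both controls and mutant replicate 2 were female and mutant replicate 1 was male.

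Promoter windows are shown for Cdkn2b and Cdkn2a because these neighbours, 11.6 kb apart on chromosome 4, read differently: the first rose and the second had 0 counts in every library. RefSeq windows on GRCm38.p6 (the assembly also called mm10) run from 250 bases before to 50 bases after a start. They matched 6 of the 7 members, and Cdkn1c had no window. The sequences are on the minus strand, the strand of both genes, at chr4:89310983-89311282 for Cdkn2b, chr4:89294570-89294869 for the upstream start of Cdkn2a (the p19Arf transcript) and chr4:89282143-89282442 for its downstream start (the p16Ink4a transcript). Capitals mark each CG pair, the substrate of DNA methylation and the mark of CpG islands.
Cdkn2b: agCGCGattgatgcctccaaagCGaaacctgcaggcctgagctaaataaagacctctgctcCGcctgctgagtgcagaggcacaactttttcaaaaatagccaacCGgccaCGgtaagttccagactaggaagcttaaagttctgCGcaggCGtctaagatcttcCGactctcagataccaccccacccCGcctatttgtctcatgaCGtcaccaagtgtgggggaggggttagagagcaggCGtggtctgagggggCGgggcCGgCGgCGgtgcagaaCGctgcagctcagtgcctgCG
Cdkn2a, upstream start: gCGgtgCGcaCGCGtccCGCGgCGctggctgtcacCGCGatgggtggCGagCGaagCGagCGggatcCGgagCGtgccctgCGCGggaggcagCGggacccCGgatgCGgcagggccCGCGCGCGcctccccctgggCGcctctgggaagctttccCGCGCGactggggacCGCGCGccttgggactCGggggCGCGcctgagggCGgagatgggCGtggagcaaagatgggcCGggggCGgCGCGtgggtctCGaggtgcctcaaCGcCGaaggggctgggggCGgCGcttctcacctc
Cdkn2a, downstream start: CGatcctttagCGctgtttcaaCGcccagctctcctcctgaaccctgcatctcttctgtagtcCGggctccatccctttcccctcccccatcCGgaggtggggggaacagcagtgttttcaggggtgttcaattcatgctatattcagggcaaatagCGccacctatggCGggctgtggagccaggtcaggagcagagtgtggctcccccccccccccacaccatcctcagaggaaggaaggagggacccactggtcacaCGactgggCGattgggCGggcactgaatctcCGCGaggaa
The Cdkn2b window held 18 CG pairs, more than 70.3% of 32851 promoter windows of the same length, whose median was 7. The upstream Cdkn2a window held 45, more than 98.1% of windows, and the downstream one held 12, more than 60.4%. The letters GGGCGG (the GC box of Sp1 family factors, searched on both strands, each match also holding a CG pair) occurred 1, 3 and 1 times in these windows, and 35.7% of all windows held them. CG pairs were fewest at the upstream start of Cdkn1a, with 2, and its other start had 23. The windows of Cdkn2c held 33 and 8, that of Cdkn1b 30 and that of Cdkn2d 22. These counts describe the windows and were not tested against expression.

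Among the INK4 genes, Cdkn2b encodes p15INK4b, the inhibitor known to respond to TGF-beta in epithelial cells. The gene spans chromosome 4 from 89306299 to 89311039 in GENCODE M21, with 2 exons. Control replicates 1 and 2 gave 6 and 4 counts, against 42 and 49 counts for mutant replicates 1 and 2. Both mutant libraries thus lay above both controls, and the lowest mutant CPM was 6.05 times the highest control CPM. In CPM the values were 0.357 and 0.265 in controls and 2.67 and 2.16 in mutants, or 0.311 ± 0.0651 against 2.42 ± 0.363 (SD, n = 2 each). The log2 fold change was 2.90 ± 0.72 (SE, adjusted p = 0.037, edgeR), with a 95% interval of the fold from 2.48 to 22.4. The mutant libraries alone carried Cdkn2b past the low-count filter, and 16.8% of the 774 genes of that kind were called higher. The call was lost when control replicate 1 or 2 was left out (adjusted p = 0.346 and 0.336) and with limma-voom (0.0934), while the log2 fold change stayed between 2.72 and 3.13 over 15 alternatives. Without mutant replicate 1, the male library, it was 2.76 (adjusted p = 0.0332).

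Cdkn2a encodes p16Ink4a and, from its upstream start and another reading frame, p19Arf, which stabilises p53 through Mdm2. It spans chromosome 4 from 89274471 to 89294653 and shares no exon base with another GENCODE M21 gene. Its 0 counts in each library allow up to 3 counts, or 0.132 to 0.199 CPM, and intervals and limits of this kind cover counting error only. Per kilobase of exon, Cdkn2b in mutant replicates 1 and 2 was at least 11.8-fold and 13.8-fold higher than that limit for Cdkn2a. The count does not separate its 2 transcripts. The next coding gene beyond Cdkn2a, the methylthioadenosine phosphorylase gene Mtap, did not pass the test (log2 fold change 0.11 ± 0.22, adjusted p = 0.855). On the other side of Cdkn2b the nearest coding gene, Dmrta1, had 0 counts in every library.

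The other INK4 genes were expressed at moderate levels in both groups. Cdkn2c, which encodes p18INK4c, lies 20.3 Mb from Cdkn2b on the same chromosome, from 109660876 to 109667189. Its levels were 15.7 and 15.5 CPM in controls and 17.2 and 13.5 CPM in mutants. The mutant values fell on either side of the controls. The log2 fold change was -0.03 ± 0.24 (SE, adjusted p = 0.969), and the 95% interval of the fold ran from 0.672 to 1.42. Cdkn2d, the gene of p19INK4d on chromosome 9 (21288410 to 21291407), had 10.8 and 5.77 CPM in controls and 7.83 and 4.54 CPM in mutants. Its replicates differed 1.87-fold in controls and 1.72-fold in mutants, and the groups overlapped. Its log2 fold change was -0.47 ± 0.41 (adjusted p = 0.628), with an interval of the fold from 0.385 to 1.35, so a decrease by more than 2-fold lies within its error. Without control replicate 1 the sign turned (0.066).

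**Figure D1:**
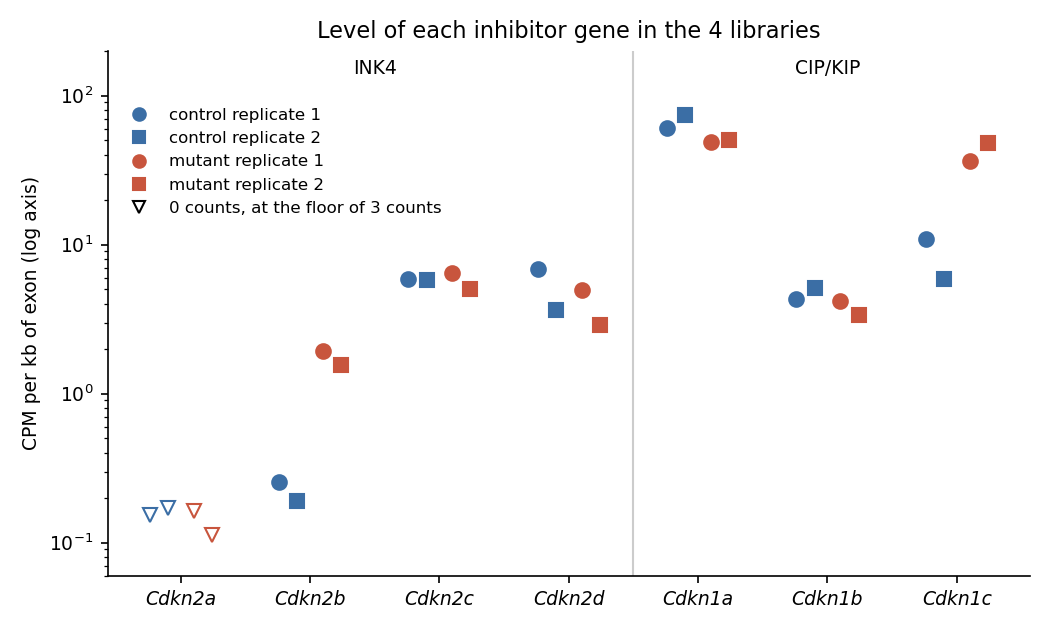
Level of each inhibitor gene per kilobase of exon (log axis) in the 4 libraries, by colour for group and shape for replicate. Open triangles place Cdkn2a, with 0 counts, at the limit of 3 counts; Cdkn2b and Cdkn1c show both mutant libraries above both controls.

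Of the CIP/KIP genes, Cdkn1c had the clearest change. The gene lies on distal chromosome 7 from 143458339 to 143461050 on the minus strand. Control replicates 1 and 2 gave 371 and 181 counts, against 1167 and 2230 counts for mutant replicates 1 and 2. In CPM this was 22.1 and 12.0 in controls and 74.2 and 98.3 in mutants. The controls differed 1.84-fold from each other and the mutants 1.32-fold, and the lowest mutant was 3.36 times the highest control. The log2 fold change was 2.33 ± 0.27 (SE, adjusted p = 0.000697, edgeR), with a 95% interval of the fold from 3.34 to 7.61. It passed the threshold in each of 15 alternatives, with log2 fold changes from 1.97 (without control replicate 2) to 2.84 (without control replicate 1). Without the male library, mutant replicate 1, the value was 2.52. An antisense gene, Gm44732, covers 625 of the 2039 exon bases of Cdkn1c, and without a stated strand setting reads from the pair cannot be told apart.

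Cdkn1a, the p53 target that encodes p21Cip1, was the most abundant inhibitor per kilobase in every library. An opposite-strand gene, AC167363.2, shares 273 of its 3553 exon bases, with the same limit of unstated strand as for Cdkn1c. Cdkn1a spans chromosome 17 from 29090976 to 29100727, 4.92 Mb from the deleted Ring1, and what sequence linked to that allele contributes was not tested. Its levels were 216 and 262 CPM in controls and 174 and 178 CPM in mutants. Both mutants lay below both controls, and the mutant mean was 73.8% of the control mean. The log2 fold change of -0.44 ± 0.15 (SE) had an unadjusted p of 0.013 and an adjusted p of 0.118 (edgeR). It missed the threshold in all 15 alternatives (adjusted p from 0.0561 to 0.763), and its fold lay in a 95% interval from 0.589 to 0.924.

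Cdkn1b encodes p27Kip1, an inhibitor controlled largely by breakdown of the protein, and spans chromosome 6 from 134920401 to 134925513. Its levels were 19.5 and 23.3 CPM in controls and 19.1 and 15.2 CPM in mutants. The higher mutant lay just under the lower control. The log2 fold change was -0.33 ± 0.23 (SE, adjusted p = 0.531), with an interval of the fold from 0.559 to 1.14.

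**Figure D2:**
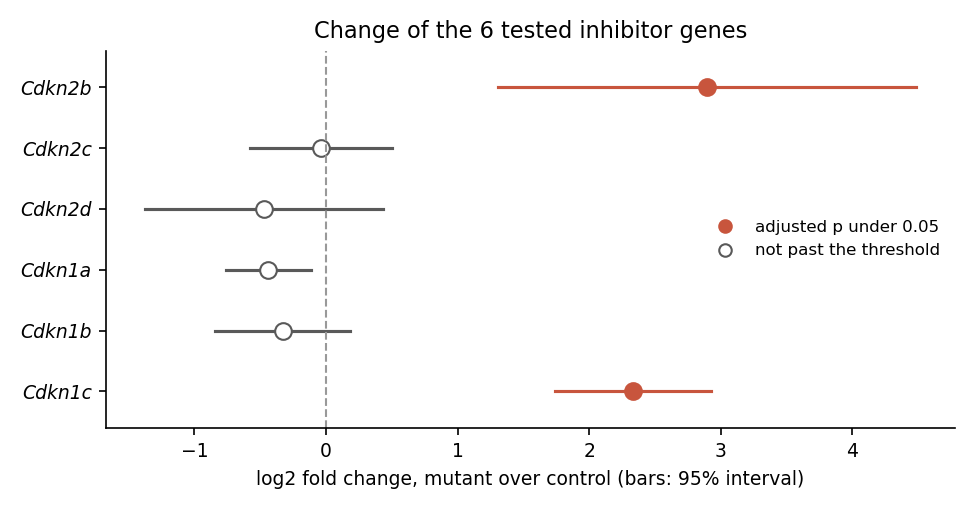
Log2 fold change, mutant over control, of the 6 tested inhibitor genes, with 95% intervals from the edgeR fit. Filled points, Cdkn2b at 2.90 and Cdkn1c at 2.33, passed the threshold; the interval of Cdkn1a lies below 0 before adjustment over all genes.

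Per kilobase of exon, the order of mean levels was the same in both groups: Cdkn1a, Cdkn1c, Cdkn2c, Cdkn2d, Cdkn1b, Cdkn2b and Cdkn2a. The distances within that order differed. In controls Cdkn1a, at 67.3 CPM per kilobase, stood far above Cdkn1c at 8.36, and Cdkn2c (5.81), Cdkn2d (5.25) and Cdkn1b (4.71) followed. The libraries of Cdkn2d overlapped those of Cdkn2c, Cdkn1b and Cdkn1c, so these positions are not separated by more than the spread. In mutants Cdkn1c reached 42.3 CPM per kilobase, next to Cdkn1a at 49.6, and its higher library lay just under the lower Cdkn1a library. Against the 14260 tested genes with a gene model, Cdkn1c moved from the 65.2 percentile of control level to the 94.9 percentile of mutant level. Cdkn2b moved from the 6.3 to the 27.6 percentile.

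The make-up of the CIP/KIP transcripts shifted with Cdkn1c. It made up 14.3% and 6.95% of their summed level per kilobase in the controls, and 40.6% and 47.4% in the mutants, replicate 1 before 2. The share of Cdkn1a was 80.1% and 87.0% in controls and 54.7% and 49.3% in mutants. Per kilobase, Cdkn1a exceeded Cdkn1c by 5.62-fold and 12.5-fold in controls and by 1.35-fold and 1.04-fold in mutants. The sum of the 3 genes was 76.0 and 84.7 CPM per kilobase in controls and 89.6 and 102 in mutants. On this scale both mutant sums lay above both controls. Without division by exon length the sums overlapped, at 258 and 297 CPM in controls and 267 and 292 CPM in mutants. Among INK4 transcripts, Cdkn2b made up 1.98% of the summed level in each control and 14.4% and 16.4% in mutants. The INK4 sums overlapped between groups: replicate 2 had 9.63 CPM per kilobase in controls and 9.46 in mutants, and replicate 1 was higher in both groups.

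**Figure D3:**
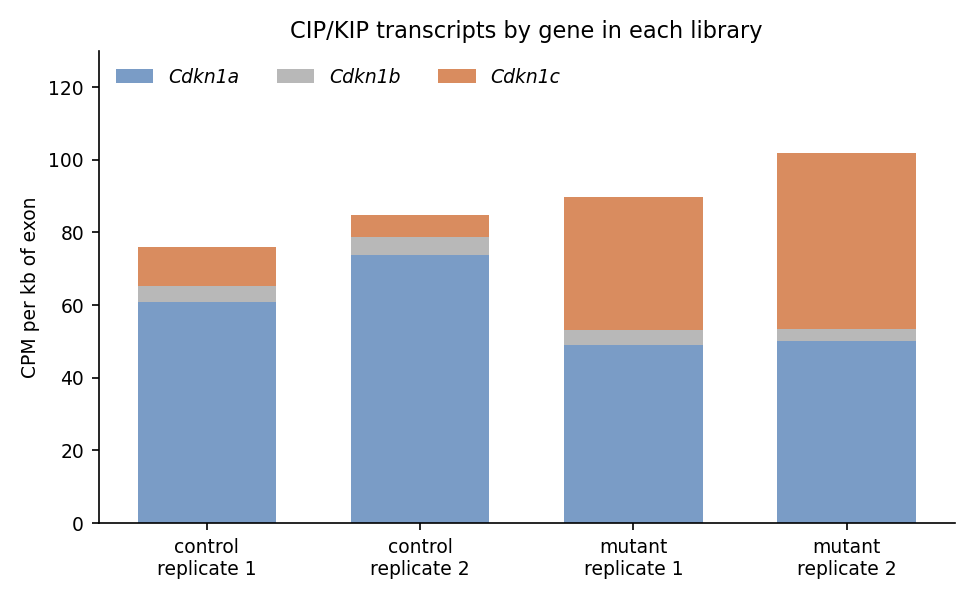
Summed level of Cdkn1a, Cdkn1b and Cdkn1c per kilobase of exon in each library, stacked by gene. Cdkn1c takes 6.95% and 14.3% of the bar in the controls and 40.6% and 47.4% in the mutants.

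No tested gene around Cdkn1c rose with it. The list of this imprinted region held 16 genes, 11 of them tested, of which 0 were called higher by edgeR, by DESeq2 or at an unadjusted p under 0.05, and 1 fell. At an unadjusted p under 0.05, 2 were lower, H19 and Ascl2, a maternally read transcription factor gene (log2 fold change -1.03 ± 0.43, adjusted p = 0.235). For the whole list the median change on the log2 scale was -0.15, and that of all tested genes was -0.01. Kcnq1ot1, the noncoding RNA whose paternal transcription is known to silence Cdkn1c on that copy, had 525 and 604 CPM in controls and 653 and 517 CPM in mutants. Its groups overlapped (log2 fold change 0.05 ± 0.16, adjusted p = 0.919). Slc22a18, the nearest coding gene at higher coordinates, 12.7 kb away, had a log2 fold change of -0.15 ± 0.31 (adjusted p = 0.871). Kcnq1, 31.3 kb away on the other side, had 0 and 1 counts in controls and 0 and 14 in mutants and was not tested. Phlda2, a maternally read gene of the same domain, had 53 and 42 counts in controls and 34 and 136 in mutants (log2 fold change 0.53 ± 0.52, adjusted p = 0.676). H19, the noncoding RNA of the neighbouring Igf2 domain, had 8185 and 8845 CPM in controls and fell to 5066 and 5118 CPM in mutants. Its log2 fold change was -0.74 ± 0.17 (adjusted p = 0.025). A replicate block ended that call (adjusted p = 0.155, edgeR), as did the block with the GC content and length correction (0.0555). Leaving out control replicate 1 or 2 also ended it, with log2 fold changes of -0.80 and -0.69. Which allele was read was not measured.

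**Figure D4:**
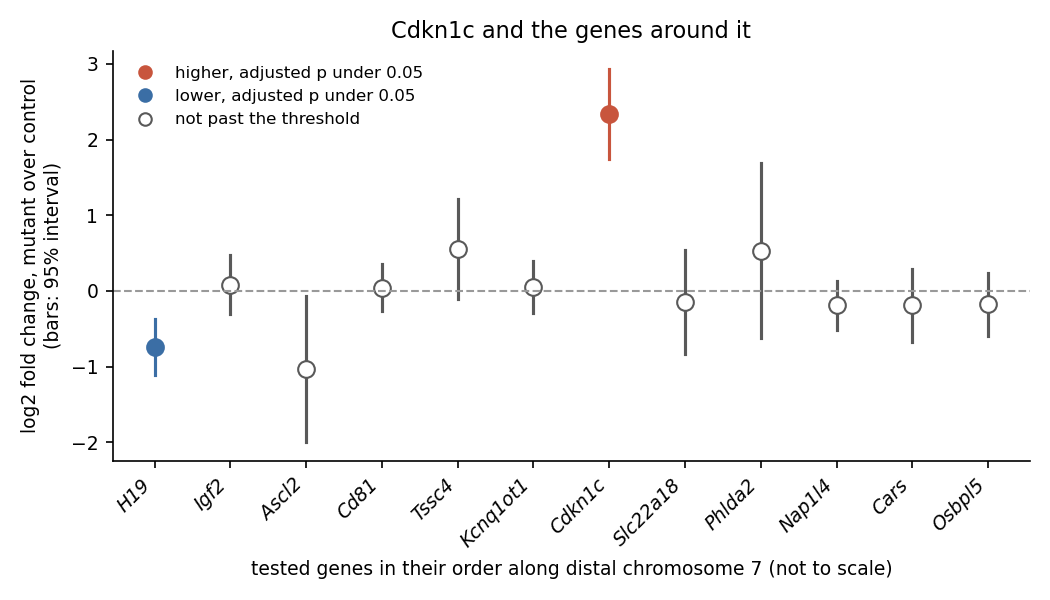
Log2 fold change, mutant over control, with 95% intervals, for Cdkn1c and the 11 tested genes of its region, in their order along distal chromosome 7. Cdkn1c stands at 2.33, H19 at -0.74 is the other gene past the threshold, and the remaining 10 intervals belong to genes that were not called.

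The nearest coding neighbours of the other members were not called either. Faf1, 9.40 kb from Cdkn2c, had the smallest adjusted p among them (log2 fold change -0.64 ± 0.18, adjusted p = 0.062), with both mutants below both controls. Kri1 and Ap1m2 flank Cdkn2d (log2 fold changes 0.02 and 0.35), Srsf3 and Rab44 flank Cdkn1a (-0.19 and -0.61), and Gpr19 and Apold1 flank Cdkn1b (0.35 and -0.37). 4930522H14Rik, on the far side of Cdkn2c, had 0 counts in all libraries.

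A list of G1 kinases and their cyclins gave 0 calls in 13 tested genes (edgeR, median log2 fold change -0.08). Besides targets of the inhibitors it holds Cdk7, Ccnh, Mnat1 and Cdc25a. Ccnd1, a D-type cyclin, was higher at an unadjusted p under 0.05 and was called by DESeq2 (log2 fold change 0.63 ± 0.19, edgeR adjusted p = 0.0902). Ccnd2, another D-type cyclin and the most abundant of the list per kilobase, had 1347 and 1502 CPM in controls and 1766 and 1706 CPM in mutants (log2 fold change 0.29 ± 0.14, adjusted p = 0.336). Cdk6, a target of INK4 proteins, had a log2 fold change of -0.07 ± 0.15 and a 95% interval of the fold from 0.757 to 1.20. Of 17 tested genes of the RB and E2F family, downstream of the G1 kinases, 0 were called by edgeR or DESeq2 (median -0.05). Of these, 0 had an unadjusted p under 0.05. Tfdp1, a partner of E2F proteins, stood at -0.05 ± 0.15, and E2f4, an E2F of resting cells, at 0.18 ± 0.15. Of 34 proliferation genes edgeR called 0 (median 0.02), with 2 higher and 1 lower at an unadjusted p under 0.05, and DESeq2 called 1 lower. The list went both ways: the genes of the Mcm helicase that licenses replication, named after their values were seen, had log2 fold changes from -0.65 ± 0.19 for Mcm6 (adjusted p = 0.0837) to -0.29 ± 0.14 for Mcm4, while the mitotic checkpoint gene Bub1 stood at 0.37 ± 0.15 (adjusted p = 0.223). Without mutant replicate 2 the list had 2 higher and 5 lower calls. Mki67, the gene of the Ki-67 antigen, had 2007 and 1892 CPM in controls and 2028 and 1948 CPM in mutants (log2 fold change 0.03 ± 0.14). Its fold lay in a 95% interval from 0.817 to 1.27. Top2a, the topoisomerase of dividing cells, had a log2 fold change of 0.03 ± 0.14. Of 16 genes of p27 and p21 protein turnover 0 were called by edgeR or DESeq2 and 0 had an unadjusted p under 0.05 (median -0.12), among them Cul1, a ubiquitin ligase scaffold (-0.13 ± 0.15), and Ddb1, an adaptor of another (-0.01 ± 0.13).

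Regulators of inhibitor transcription included 1 call in 26 tested genes (median log2 fold change 0.01), with 7 higher and 2 lower at an unadjusted p under 0.05. DESeq2, the robust quasi-likelihood fit, the other scalings and filters, a replicate block and the GC content and length correction each called 2 higher. With that correction and a replicate block together there were 3 higher and 1 lower. Tbx3, a T-box repressor known to act on Cdkn2a and Cdkn1a, rose from 5.77 and 1.46 CPM in controls to 28.2 and 36.2 CPM in mutants (log2 fold change 3.13 ± 0.41, adjusted p = 0.00136). Trp53, the activator of Cdkn1a, did not pass the test (-0.23 ± 0.16), nor did the Polycomb gene Bmi1 (0.44 ± 0.14, adjusted p = 0.105). Foxo3 had the smallest adjusted p of the regulators not called (0.66 ± 0.17, adjusted p = 0.0514, edgeR). Trp53, Bmi1 and Foxo3 were chosen after their values were seen. Of 26 tested p53 targets besides Cdkn1a, Trp53inp1, a stress-induced target, rose (log2 fold change 1.08 ± 0.28, adjusted p = 0.0472), and the median of the list was -0.06. That call was lost in 6 of 15 alternatives. It was lost without control replicate 1, control replicate 2 or mutant replicate 1 (adjusted p = 0.134, 0.206 and 0.0861). It was also lost with limma-voom (0.0795), the earlier quasi-likelihood fit (0.0537) and the robust quasi-likelihood fit (0.0517). At an unadjusted p under 0.05 the list had 2 genes higher and 1 lower.

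TGF-beta signalling, which is known to induce Cdkn2b, included 2 genes that rose and 1 that fell among 18 tested (median log2 fold change 0.23). Of all tested genes edgeR called 5.68% higher and 1.04% lower. At an unadjusted p under 0.05 the list had 5 genes higher and 1 lower. Tgfb2, a ligand, had 15.4 and 9.94 CPM in controls and 71.7 and 70.7 CPM in mutants (log2 fold change 2.48 ± 0.22, adjusted p = 0.000166). Ltbp1, which holds latent TGF-beta in the matrix, had 22.9 and 13.3 CPM in controls and 70.4 and 54.8 CPM in mutants (1.78 ± 0.25, adjusted p = 0.00219). Both genes passed the threshold in each of 15 alternatives. Tgfbi, a matrix protein induced by TGF-beta, had 196 and 203 CPM in controls and fell to 117 and 98.7 CPM in mutants. Its log2 fold change was -0.89 ± 0.15 (adjusted p = 0.00487, and 0.0862 without control replicate 1). The receptors and SMAD genes of the list were not called.

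Factors that senescent cells secrete were taken as a further list, since Cdkn2a and Cdkn2b mark senescence in many cells. Of 22 genes 15 were tested, 2 rose and none fell, with a median log2 fold change of 0.77 against -0.01 for all tested genes. Of all tested genes edgeR called 5.68% higher. At an unadjusted p under 0.05, 7 genes of the list were higher and 0 lower, a level at which the share of all genes was not counted. DESeq2 called 2 of the list higher and 0 lower. Igfbp3 rose from 50.4 ± 10.4 to 123 ± 3.37 CPM and Igfbp4 from 21.8 ± 2.89 to 48.2 ± 2.01 CPM (SD, n = 2 each), both binding proteins of insulin-like growth factors. Their log2 fold changes were 1.29 ± 0.17 and 1.15 ± 0.19 (adjusted p = 0.00153 and 0.00465, edgeR). Without control replicate 1 both calls were lost (adjusted p = 0.0573 and 0.125). Il6, a leading member, had a log2 fold change of 0.11 (adjusted p = 0.937).

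**Figure D5:**
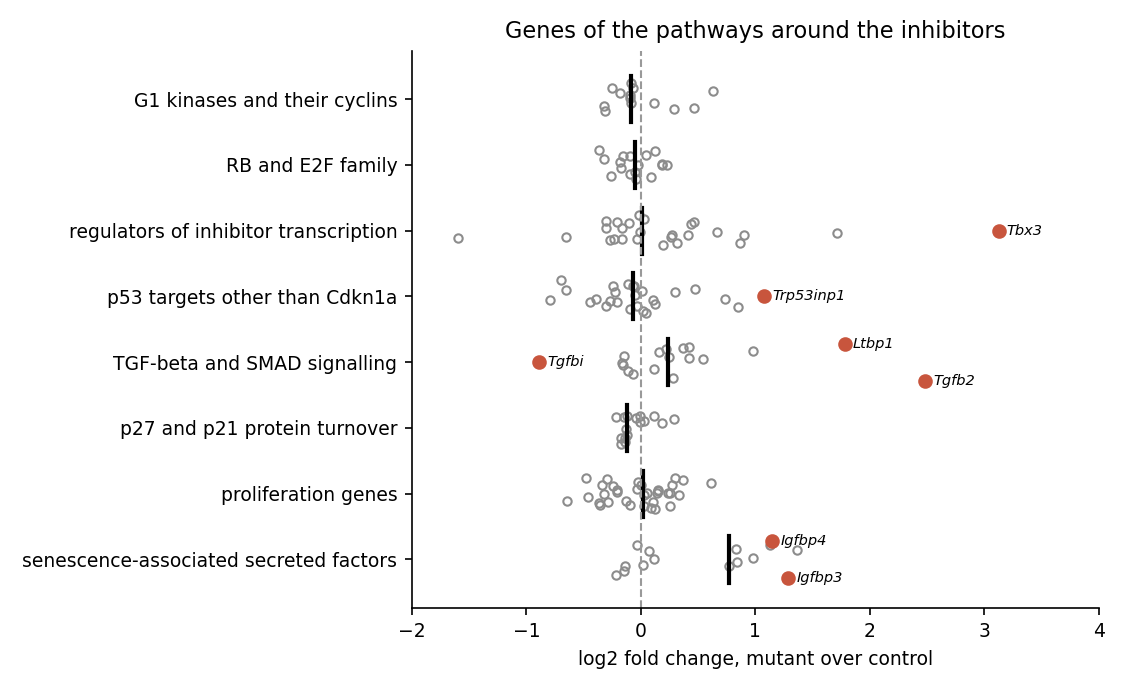
Log2 fold change, mutant over control, of the tested genes in 8 pathway lists around the inhibitors. Open circles did not pass the threshold, filled and named genes did, and black bars are list medians, from -0.12 for protein turnover to 0.77 for secreted factors.

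Of the genes with Cdkn or related symbols outside both families, 0 of 6 tested were called by edgeR or DESeq2, and 0 had an unadjusted p under 0.05. Cdkn2aipnl had a log2 fold change of 0.31 ± 0.21 and Cdk2ap1 one of -0.23 ± 0.23. The genes whose log2 CPM, centred on their mean over the 4 libraries, lay closest to Cdkn1c among 12794 candidates were Slc35f2, Espn and Gpr153 (Euclidean distances of 0.116, 0.198 and 0.202 in log2 units). Their log2 fold changes were 2.41, 2.43 and 2.21. Closest to Cdkn2b were Mxra7, Enpp4 and Grb14 (distances of 0.0985, 0.160 and 0.201), with log2 fold changes of 2.66, 2.68 and 2.41. These distances rest on 4 libraries.

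Markers of other cells also differed between the groups. Of 12 fibroblast markers, all tested, 3 rose, among them Thy1 (log2 fold change 1.51 ± 0.22) and Col6a1 (0.71 ± 0.18). Of all tested genes edgeR called 5.68% higher. The median log2 fold change of the 12 was 0.50 and the lowest was 0.10, so all lay above 0. At an unadjusted p under 0.05 (edgeR), 7 were higher and 0 lower. The summed level was 1543 and 1606 CPM in controls and 2305 and 2091 CPM in mutants. Thy1 was not called without control replicate 1 (adjusted p = 0.0786). Col6a1 was not called without control replicate 1 or 2 (0.336 and 0.276), with the GC content and length correction (0.0917) or with that correction and a replicate block (0.0627). Of 12 hair follicle markers 3 rose, among them Lhx2 (1.83 ± 0.18) and Hoxc13 (2.63 ± 0.46), and 3 fell, among them Tchh (-1.87 ± 0.18) and Krt27 (-3.27 ± 0.60); the sum was 707 and 706 CPM in controls and 965 and 1065 CPM in mutants. DESeq2 called 7 of these markers higher and 3 lower. Hoxc13 was not called without control replicate 1 (adjusted p = 0.0989), nor Krt27 without control replicate 1 or 2 (0.0768 and 0.0665). Of 7 Merkel cell markers 4 were tested and Piezo2 rose (1.44 ± 0.27), a call that ended when control replicate 1 or 2 was left out (adjusted p = 0.0901 and 0.0579). At an unadjusted p under 0.05, 2 of the 4 were higher and 1, the keratin gene Krt8, was lower (log2 fold change -2.40 ± 0.78, adjusted p = 0.111). Their list summed to at most 17.7 CPM in controls and at least 24.2 CPM in mutants. The sum over 9 genes of basal keratinocytes was 30404 and 33961 CPM in controls and 23856 and 21094 CPM in mutants, and 1 of them, Krt15, fell (-0.78 ± 0.18, adjusted p = 0.378 without control replicate 1). Among the 9 basal genes, 4 were lower and 1 higher at an unadjusted p under 0.05 (edgeR). DESeq2 called 3 of them lower and 1 higher, and limma-voom called 3 lower. Of 9 tested suprabasal genes Tgm3 fell (-2.05 ± 0.37), and their sums overlapped between groups. At that unadjusted level 3 suprabasal genes were lower and 1 higher, and DESeq2 called 2 lower. No melanocyte, immune, endothelial or skeletal muscle marker was called by edgeR; at an unadjusted p under 0.05, 1 melanocyte and 3 immune markers were higher and 1 muscle marker lower, and DESeq2 called 1 immune and 1 muscle marker. No marker measured was at 0 in every library. In bulk samples, a change in the number of cells of a type and a change in RNA per cell cannot be told apart, and the part of these markers in the rise of Cdkn1c and Cdkn2b was not tested.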

How the data were processed

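Sorted epidermal cells were sequenced after amplification of total RNA, per the labels' protocols. The values the authors deposited are whole-number read counts, listed by gene symbol, for each of 4 libraries. Per the submitters' processing notes, the build was mm10 and the tools included HTSeq 0.6.1 (a read counter), TopHat2 2.0.13 (an aligner), DESeq2 1.6.3 and Cufflinks 2.2.1, with no order given. The sources used here name no annotation or strand setting. Groups and replicate numbers came from the labels.

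Genes were filtered with filterByExpr (minimum count 10, minimum total 15), which kept 14550, scaled with TMM and compared with edgeR 4.0.16 in R 4.3.3 (glmQLFit and glmQLFTest, two-sided, no block). Adjusted p-values are Benjamini-Hochberg over all tested genes, at 0.05. CPM divide each count by the library size after TMM scaling, and levels per kilobase use the union of exons in GENCODE M21 (98.0% of tested genes matched by symbol). SE and 95% intervals were derived from each gene's coefficient and F statistic. The test was also run on counts simulated from the control means and the library sizes. Replicates of a group differed by more than sampling noise (chi-square per degree of freedom 11.2 for controls and 35.2 for mutants). Promoter windows are from RefSeq.

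The members and lists were chosen with earlier results of these data known. Named were the members, their nearest coding neighbours, up to 4 called genes in each direction of a pathway list or the 2 of highest level per length where none was called, up to 2 called markers in each direction, and the 3 genes closest in pattern to each called member (predicted genes, clone names and small RNAs left out, mean of at least 1 CPM). Other genes named (Bmi1, Trp53, Foxo3, Kcnq1ot1, Phlda2, Ascl2, Il6, Ccnd1, Mcm6, Mcm4, Bub1, Krt8) were chosen after their values were seen. The alternatives tried were limma-voom (limma 3.58.1), DESeq2 1.42.0, other quasi-likelihood fits, scalings and filters, each library left out, a replicate block, and offsets from a loess fit (span 0.5) on GC content and length.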

Additional observations from a re-analysis of the deposited data

How the results depend on the processing

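Cdkn1c kept its direction and its side of the threshold in all 15 alternatives, and Cdkn1a, Cdkn1b, Cdkn2c and Cdkn2d stayed short of the threshold in all of them. Cdkn2b lost its call with limma-voom (log2 fold change 2.81), which left 1 inhibitor called higher. Leaving out each library gave 1 to 2 inhibitors higher, and log2 fold changes from 2.72 to 3.13 for Cdkn2b, -0.21 to 0.14 for Cdkn2c and -0.88 to 0.066 for Cdkn2d; the sign of Cdkn2c turned without mutant replicate 2 and that of Cdkn2d without control replicate 1. These fits take the spread of the lone library's group from the other group.

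Over all genes, leaving out each library gave 251 to 1202 higher and 38 to 403 lower calls, against 826 and 151, and over the pathway lists 3 to 15 higher and 0 to 9 lower, against 6 and 2. Lower calls over all genes were 232 with DESeq2 and 315 with offsets for length and GC content. The sources used here do not say what same-numbered libraries share beyond the number. Same-numbered deviations correlated at 0.041, and a shared batch was not tested. With the replicate block 232 genes were lower and 1042 higher, Cdkn2b had a log2 fold change of 2.93 and Cdkn1c of 2.37, and both stayed called. With the offsets and the replicate block together 1265 genes were higher and 591 lower, and 13 and 5 in the pathway lists. The cause of these moves was not tested. The counts of Cdkn2b are few and those of Cdkn2a are 0 at the depth of these libraries. The annotation used for counting is not named in the sources used here, and why Cdkn2a had 0 counts was not tested.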
